A study of Homo sapiens with 12 samples.

Results

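HepaRG cells, a human hepatic line, were left untreated or given 400 µM deuterium-labelled palmitate for 4 h, and the expression of 58735 annotated genes was compared between 3 untreated (control) and 3 palmitate (PA) libraries. Every gene with at least 1 FPKM in at least 3 of these 6 libraries was kept, without regard to its change, which left 11032 genes of 58735, of which 9710 were protein-coding. FPKM is the number of fragments of a gene per kilobase of its length scaled to library size, and all tests were made on log2(FPKM + 1), a scale that understates the change of low genes. All cells of the study are labelled wild type, and its 12 libraries also include palmitate with 200 µM oleate (PA+OA) and palmitate with 50 µM of the inhibitor BMS-309403 (PA+BMS). The inhibitor was given for 24 h, and of these groups only levels are shown here. No source used here says that the 3 libraries of a group are separate cultures, so p-values measure a spread that may be technical. No vehicle or albumin carrier for palmitate is named for either group, and the labels do not say what the untreated cells received in its place.

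Palmitate is the main saturated fatty acid of blood plasma and diet, and in liver cells it is esterified into triglyceride and phospholipid, burned in mitochondria, or turned into ceramide. Fatty acids are ligands of the PPAR nuclear receptors, whose targets include ANGPTL4, PDK4 and CPT1A. Saturated fatty acids are also known to stress the endoplasmic reticulum and to activate kinases that phosphorylate eIF2-alpha. That step slows translation in general, lets ATF4 be made, and leads through ATF4 and CHOP to a set of stress genes called the integrated stress response. Stress-activated MAP kinases in turn switch on immediate early genes such as JUN, ATF3 and EGR1, which respond without new protein synthesis.

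Promoter windows of some genes that rose are shown first. They were chosen because they hold an element searched for, taking the largest rises among the named genes that do. They therefore do not show how often genes with large rises hold an element, which the shares below give. Promoters, taken as 250 bases before to 50 bases after the RefSeq start (GRCh38.p14), were found for 7999 of 11032 tested genes. The C/EBP-ATF response element, searched as TGATGNAAN on both strands, is the site type bound by ATF4 and CHOP dimers. Capitals in the first 4 windows mark this element, written as it lies on the gene's strand. In PPP1R15A they mark the cyclic AMP response element TGACGTCA, and in DDIT3 the AP-1 site TGANTCA.
CHAC1: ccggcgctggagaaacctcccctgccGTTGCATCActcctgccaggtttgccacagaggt
ATF3: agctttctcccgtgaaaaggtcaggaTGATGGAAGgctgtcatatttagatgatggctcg
HERPUD1: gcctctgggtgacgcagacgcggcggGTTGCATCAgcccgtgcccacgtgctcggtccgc
PLK3: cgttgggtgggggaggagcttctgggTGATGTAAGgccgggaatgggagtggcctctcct
PPP1R15A: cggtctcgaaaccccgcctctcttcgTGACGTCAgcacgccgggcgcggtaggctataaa
DDIT3: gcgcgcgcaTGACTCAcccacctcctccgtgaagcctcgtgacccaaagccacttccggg
The windows lie at chr15:40953235-40953294, chr1:212565190-212565249, chr16:56931939-56931998, chr1:44800218-44800277 and chr19:48872337-48872396 on the plus strand and, for DDIT3, at chr12:57520705-57520764 on the minus strand, all upstream of the start. The C/EBP-ATF element was found in 3.67% of all promoters, in 1.49% of those of tested genes, in 5 of 56 promoters of genes that rose at least 2-fold (8.93%) and in 0 of 51 of genes that fell as much. For the cyclic AMP response element the shares were 1.98% of all, 3.65% of tested, 10 of 56 (17.9%) and 0 of 51. AP-1 sites stood in 7.76% of all promoters, 4.18% of tested, 6 of 56 and 5 of 51. The median GC content of the promoters was 66% for tested genes, 67.8% for rises of at least 2-fold and 60.3% for such falls. How far the shares go with this difference was not tested. A match describes the letters of the window and does not show that a factor bound there.

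The 6 libraries held between 16059128 and 18908363 whole reads recovered from the FPKM values. The first principal component of log2(FPKM + 1) took 72.7% of the variance and separated the groups, with controls at -10.1, -30.98 and -28.5 and PA at 21.7, 29.4 and 18.4 for replicates 1, 2 and 3. Control 1 stood apart from controls 2 and 3 and nearer to PA: the chi-square per gene of its reads against controls 2 and 3 was 24.9 and 22.4, and 8.35 between those 2. Control 1 exceeded both other controls in 21 of 24 genes of the integrated stress response and in 19 of 25 immediate early genes, and 13 of 15 heat shock genes were below both, against 4334 above and 4453 below of all 11032 tested genes. A fit of the log2 changes on GC content and gene length took up 47.8% of their variance. Genes that rose had a median GC content of 57.9% and genes that fell of 42.6%, so the counts of a gene group are also given after removal, in every library, of the trend of level with GC content and length. Where a pair of counts follows in parentheses, it keeps the order of rises and falls of its sentence, and "totals equal" stands for libraries scaled to equal totals. The trend runs along the same libraries as the treatment, and an effect of either cannot be told apart from the other. None of 20 hepatocyte markers reached 1 FPKM in any of the 6 libraries, and 5 had no read, ALB among them. The markers summed to between 0.203 and 0.345 FPKM in control and to between 0.339 and 0.585 in PA. The epithelial keratins KRT7, KRT8 and KRT18 and the mesenchymal filament gene VIM were expressed, with KRT7 between 476 and 668 FPKM, while the bile duct keratin KRT19 was at most 0.0514. The epithelial junction genes CDH1 and OCLN and the surface marker EPCAM were at most 0.0582, 0.0976 and 0.0476 FPKM. In at least 1 library 1 FPKM was reached by 3 of 5 markers of simple epithelium, 4 of 10 of bile duct epithelium and 5 of 12 of stellate cells and fibroblasts. The name HepaRG is taken from the labels and does not follow from these markers. The cells are not called hepatocytes here.

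**Figure D1:**
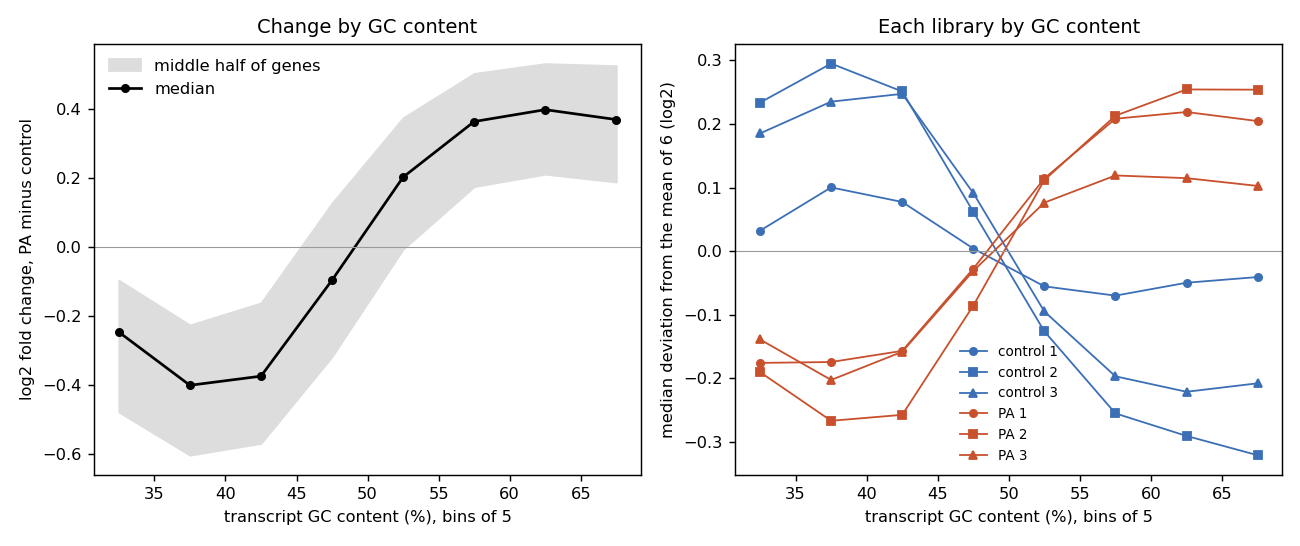
Left, the log2 change from control to PA for tested genes in bins of 5 percentage points of transcript GC content, as the median (line) and the middle 50% (band). Right, each library's median deviation from the mean of the 6 libraries in the same bins; the median change ran from -0.40 at 35 to 40% GC to 0.40 at 60 to 65%, and control 1 lay closest to 0 among the controls.

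Between control and PA the level changed for 5891 of 11032 genes (53.4%) at an adjusted p of 0.05 in limma, with 3082 that rose (27.9%) and 2809 that fell (25.5%). Most of these changes were small. Rises had a median log2 change of 0.47 and falls of -0.51, and 83 genes rose (0.752%) and 76 fell (0.689%) by at least 2-fold. This 2-fold limit applies to FPKM + 1, which understates the change of low genes. With 0.1 added to FPKM in place of 1, the 159 genes past the limit became 446. The 3 libraries of one group lay wholly above those of the other for 6899 genes (62.5%). When the libraries were scaled to equal totals, the median change over all tested genes went from 0.034 to -0.19 on the log2 scale, and 977 rose and 4265 fell. With a filter at 5 FPKM 2580 rose and 1495 fell, and with voom on the recovered reads, where the median of all genes was -0.14, 1750 rose and 3877 fell. With the GC and length trend removed rises came to 1247 (11.3%) and falls to 1414 (12.8%). Counts of a gene group are to be read against these shares of all genes. Of the tested genes, 98 reached 1 FPKM in 3 libraries only through the PA libraries and 166 only through controls, and 76 of the former rose and 143 of the latter fell, as their selection favours. MR1, just inside the limit, had a third-highest value of 1.00017 FPKM, and DMBX1, just outside, of 0.999613.

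**Figure D2:**
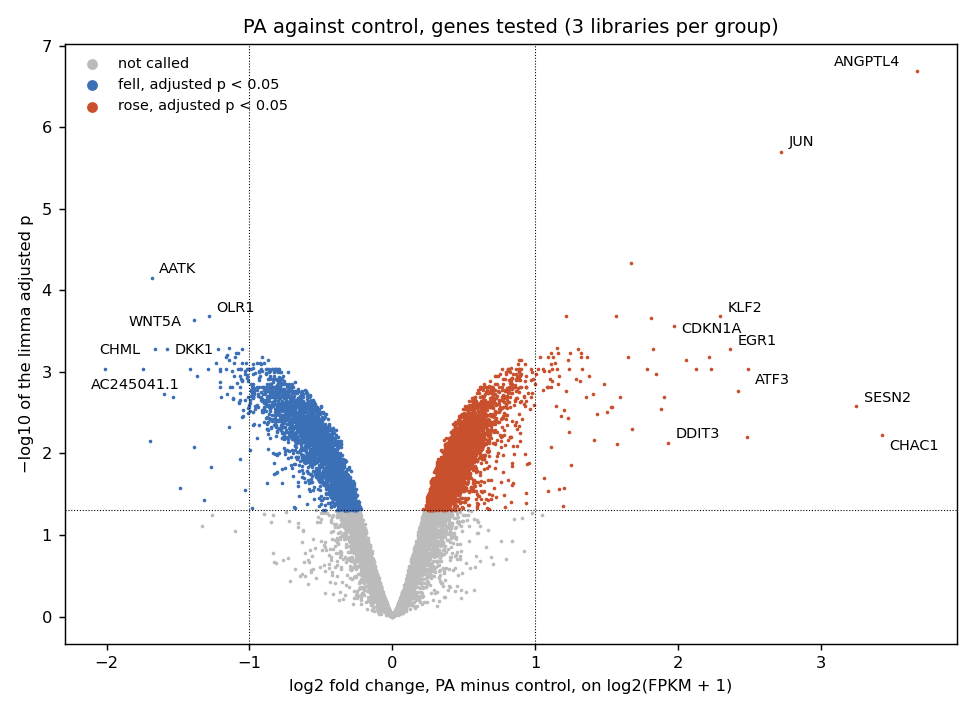
Each point is a tested gene, with the log2 change from control to PA on log2(FPKM + 1) on the horizontal axis and minus log10 of the limma adjusted p on the vertical axis; dotted lines mark 2-fold and an adjusted p of 0.05. ANGPTL4 (3.67) and JUN (2.72) lie far above the other genes, and the rises reach larger changes than the falls.

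ANGPTL4, a secreted inhibitor of lipoprotein lipase and a PPAR target (ENSG00000167772, chromosome 19, 8363289 to 8374373), had the largest rise of any gene under the rule for named genes. Its level went from 7.39, 7.56 and 7.04 to 99.4, 115 and 101 FPKM in replicates 1, 2 and 3 of control and PA (log2 change 3.67, SE 0.094, limma adjusted p = 2.05e-07). The controls were close together and every PA library was more than 10 times the highest control. ANGPTL4 overlaps the antisense gene RAB11B-AS1 in the annotation, and the strand setting of the counting is not given in the sources used here. Other PPAR targets moved far less. PDK4, which shuts pyruvate out of mitochondrial oxidation, rose from 25.2, 26.5 and 22.1 to 36.98, 35.8 and 43.3 FPKM (log2 change 0.63, SE 0.11, limma adjusted p = 0.00304), and CPT1A, which admits fatty acids into mitochondria, rose from 28.98, 25.8 and 30.6 to 41.4, 36.4 and 35.9 FPKM (log2 change 0.40, limma adjusted p = 0.0113). TXNIP, an inhibitor of thioredoxin and glucose uptake, stands in this list and also in that of hypoxia and glycolysis genes. TXNIP fell from 3.68, 3.96 and 4.62 to 1.57, 1.23 and 1.52 FPKM (log2 change -1.06, SE 0.11, limma adjusted p = 0.000910). In each of these genes the PA libraries were all on one side of the controls. Of 13 genes tested in the list of PPAR targets, 7 rose and 1, TXNIP, fell, with a median log2 change of 0.40 (trend removed, 4 and 1; totals equal, 2 and 2).

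The enzymes of beta-oxidation, which shorten fatty acids in mitochondria and peroxisomes, had 7 rises and 2 falls among 19 (totals equal, 3 and 8), with a median of 0.12 that was -0.15 with totals set equal. ACADVL, the very long-chain dehydrogenase, rose from 175, 145 and 148 to 229.9, 239.7 and 219 FPKM (log2 change 0.56), the peroxisomal thiolase ACAA1 by 0.50 and the electron acceptor subunit ETFB by 0.48 on the log2 scale, whereas ACADM, the medium-chain dehydrogenase, fell from 5.66, 6.17 and 6.09 to 3.48, 3.76 and 3.56 FPKM (log2 change -0.60). With the trend removed 6 of these enzymes rose and 0 fell, and ACADVL and ACADM no longer passed the test (limma adjusted p = 0.0547 and 0.0815). Without each of control 2, control 3 and PA 2 the falls numbered 1. Genes of fatty acid uptake, binding and activation had 1 rise and 5 falls among 14 (trend removed, 1 and 2; totals equal, 0 and 6; 2 rises without control 1). CAV1, the coat protein of caveolae, fell from 12.9, 13.9 and 14.4 to 7.36, 6.63 and 6.33 FPKM (log2 change -0.93, SE 0.093, limma adjusted p = 0.000773), and the acyl-CoA synthetases SLC27A2 and ACSL4 changed by -0.52 and -0.64, while SLC27A4 rose by 0.56. PLIN2, a lipid droplet coat gene that fatty acids commonly induce, had 1 read in the 6 libraries. CD36, a fatty acid translocase, lay between 0.0665 and 0.182 FPKM, FABP1 had no read and FABP4 had 3 reads in all, where 3 reads in 1 library would be worth up to 0.0733 and 0.130 FPKM. These limits cover counting error only.

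Genes that store and release triglyceride mostly rose: 11 of 17 rose and 1 fell, with a median of 0.36 (trend removed, 6 and 0; totals equal, 4 and 1). The rises numbered 7 without control 2 or PA 2, and the 1 fall was lost without each of control 2, control 3, PA 2 and PA 3. PNPLA2, the adipose triglyceride lipase, rose from 36.6, 27.8 and 28.6 to 53.6, 58.3 and 51.4 FPKM (log2 change 0.80, SE 0.12, limma adjusted p = 0.00202). FITM2, needed for droplet budding, rose by 0.57, DGAT1, which makes triglyceride, by 0.63, and the droplet coat gene PLIN3 by 0.57 on the log2 scale. DGAT1 and the heat shock factor gene HSF1 overlap in the annotation. Among genes of fatty acid synthesis, desaturation and elongation 7 of 14 rose and 3 fell (trend removed, 2 and 0; totals equal, 1 and 4), and the rises numbered 4 without control 2 or PA 2. FASN, the fatty acid synthase, rose from 105, 90.9 and 101 to 183, 161 and 123 FPKM (log2 change 0.63) and the desaturase SCD from 228, 223 and 249 to 358, 284 and 286 FPKM (log2 change 0.40, limma adjusted p = 0.0233), while the elongases ELOVL6 and ELOVL5 fell by 0.52 and 0.48 on the log2 scale. SCD was called in 4 of 6 fits that each left out 1 library.

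Of 27 genes of cholesterol synthesis and uptake 16 rose and 4 fell, with a median of 0.34. With totals set equal the numbers were 8 and 8, with the trend removed 9 and 0, and without PA 2 they were 10 and 2, with 2 falls also without control 2. MVK, mevalonate kinase, rose from 6.03, 4.53 and 4.42 to 9.96, 11.6 and 10.7 FPKM (log2 change 0.98, SE 0.12, limma adjusted p = 0.00120), with every PA library above every control. MVD, a later enzyme of the mevalonate pathway, rose by 0.79, DHCR7, which makes cholesterol from its last precursor, by 0.78, and INSIG1, which holds SREBP in the endoplasmic reticulum, by 0.44 on the log2 scale. HMGCS1, the cytosolic HMG-CoA synthase, went the other way from 3.999, 6.39 and 6.83 to 3.69, 2.82 and 3.19 FPKM (log2 change -0.65, limma adjusted p = 0.0124). Control 1 was the lowest control for HMGCS1, and its PA libraries still lay below it. In phospholipid synthesis 5 of 19 rose and 4 fell (trend removed, 4 and 1; totals equal, 2 and 6), with LPCAT3, which puts polyunsaturated chains into phospholipids, up by 0.61 and LPCAT1, which prefers saturated chains, down from 20.9, 26.3 and 27.9 to 17.9, 17.7 and 18.1 FPKM (log2 change -0.45). Rises in this group numbered between 2 and 8 and falls between 1 and 4 when 1 library was left out, with the lowest rises without control 2 (2) and PA 2 (3) and the highest without control 1 (8). Falls there numbered 2 without control 2 and 1 without each of control 3, PA 2 and PA 3. Ceramide and sphingosine genes had 5 rises and 3 falls among 17 (trend removed, 4 and 0; totals equal, 1 and 9). Of all tested genes 27.9% rose and 25.5% fell, shares near those of the phospholipid and ceramide groups. SPHK1, which phosphorylates sphingosine, rose from 30.3, 24.4 and 26.1 to 39.3, 44.2 and 41.5 FPKM (log2 change 0.62) and SMPD1, the acid sphingomyelinase, by 0.47. SPTLC1, a subunit of the first enzyme of ceramide synthesis, fell by 0.33 and the sphingomyelin synthase SGMS2 by 0.38, and with the trend removed both were slightly above 0 at 0.058 and 0.064. Without each of control 2, control 3, PA 1 and PA 2 the rises of the ceramide group numbered 2, and its falls between 0 and 4 over all 6 such fits.

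**Figure D3:**
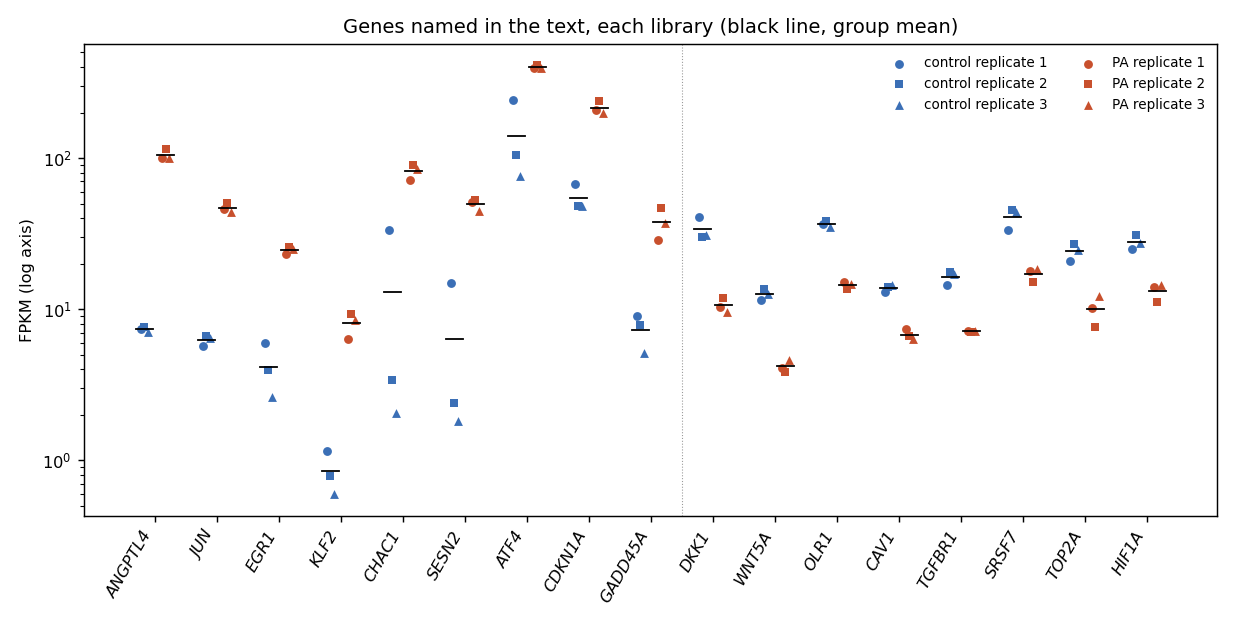
FPKM (log axis) of genes named in the text, one symbol per library and a black line at the group mean, with genes that rose left of the dotted line and genes that fell right of it. The control and PA libraries of each gene drawn do not overlap, which was required of genes named as the largest rises and falls. Among all tested genes 62.5% do not overlap. Control 1 is the highest control of CHAC1 (33.4 FPKM), SESN2 (14.9 FPKM) and ATF4 (241 FPKM).

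Of the 83 genes that rose at least 2-fold, 14 belong to the integrated stress response. Of 24 tested members of that list 21 rose and 0 fell, and the median log2 change was 1.47 against 0.034 over all tested genes. The count was 21 and 0 without control 1, 17 and 0 with totals set equal, and 18 and 0 with the trend removed. ATF4, the transcription factor at the centre of the response (ENSG00000128272, chromosome 22, 39519695 to 39522685), rose from 241, 105 and 76.3 to 396, 410.2 and 397 FPKM (log2 change 1.68, SE 0.34, limma adjusted p = 0.00500). DDIT3, which encodes CHOP, rose from 13.95, 3.68 and 2.43 to 20.97, 23.7 and 23.4 FPKM (log2 change 1.93, SE 0.44, limma adjusted p = 0.00743), and ATF3, another factor of the family, rose from 10.03, 4.88 and 3.57 to 33.04, 41.5 and 34.9 FPKM (log2 change 2.48, SE 0.27, limma adjusted p = 0.000924). The PA libraries of these 3 genes lay within a narrow band, all above the controls, whereas control 1 lay well above controls 2 and 3.

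Among other stress genes, CHAC1, which degrades glutathione, rose from 33.4, 3.38 and 2.04 to 71.8, 90.6 and 84.6 FPKM (log2 change 3.43, SE 0.73, limma adjusted p = 0.00596). SESN2, a stress-induced inhibitor of mTORC1, rose from 14.9, 2.37 and 1.82 to 51.4, 53.1 and 44.7 FPKM (log2 change 3.25, SE 0.53, limma adjusted p = 0.00260). TRIB3, a pseudokinase that restrains ATF4 and AKT, rose from 78.8, 42.3 and 50.9 to 231, 251 and 217 FPKM (log2 change 2.05, SE 0.20, limma adjusted p = 0.000704). In CHAC1 and SESN2 control 1 was several times the other controls and still below every PA library, and without it their limma adjusted p fell to 6.45e-06 and 2.06e-06. With the trend removed their limma adjusted p was 0.0219 and 0.00925. With no filter CHAC1 and DDIT3 were no longer called. The secreted stress cytokine GDF15 rose from 55.8, 21.9 and 20.01 to 125, 197 and 165 FPKM (log2 change 2.42, SE 0.34, limma adjusted p = 0.00172). PPP1R15A, the phosphatase subunit that reverses eIF2-alpha phosphorylation, rose from 30.5, 14.97 and 14.7 to 82.8, 95.3 and 80.7 FPKM (log2 change 2.13, SE 0.24, limma adjusted p = 0.000924), and the secreted peptide gene ADM2 rose by 1.90 on the log2 scale. All PA libraries were above all controls in these genes too, as the rule that named the largest rises required. The microRNA gene MIR3189, which lies inside GDF15, was listed at 3.52, 0 and 0 and 4.92, 9.91 and 11.2 FPKM, and its reads cannot be told apart from those of GDF15. ASNS, asparagine synthetase, was low and rose from 1.16, 1.02 and 0.929 to 2.404, 2.56 and 2.47 FPKM (log2 change 0.77).

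**Figure D4:**
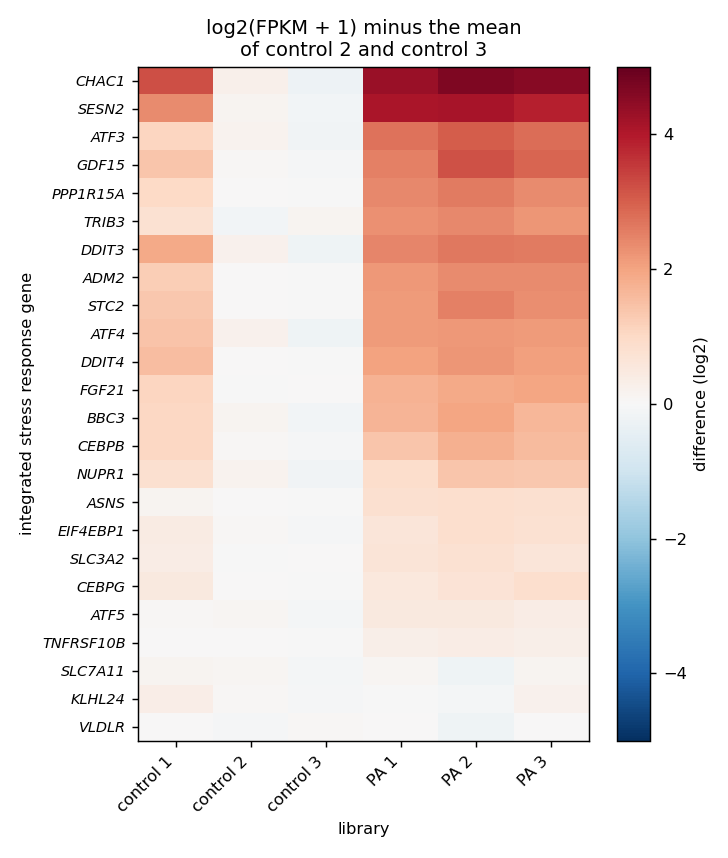
Difference in log2(FPKM + 1) of each library (columns) from the mean of controls 2 and 3, for the 24 integrated stress response genes tested (rows), from blue for lower to red for higher. The 3 PA columns are red from CHAC1 down to TNFRSF10B, control 1 is paler than PA and redder than controls 2 and 3 in most rows, and SLC7A11, KLHL24 and VLDLR are near 0 throughout.

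A separate list of kinases, phosphatase subunits and initiation factors around eIF2-alpha does not hold PPP1R15A. Of 16 tested there 4 rose and 7 fell (totals equal, 3 and 10). EIF2AK2, which encodes the double-stranded RNA-activated kinase PKR, fell from 3.77, 5.14 and 5.16 to 2.29, 2.38 and 2.55 FPKM (log2 change -0.73), and the guanine exchange factor subunits EIF2B2 and EIF2B5 rose by 0.49 and 0.51. With the trend removed 5 rose and 0 fell, and the falls numbered 3, 4 and 3 without control 2, control 3 and PA 2. Genes of amino acid supply, many of them known ATF4 targets, rose in part. Of 19 serine, asparagine, proline and folate genes 12 rose and 0 fell, with a median of 0.37 (trend removed, 12 and 1; totals equal, 9 and 2). GPT2, the mitochondrial alanine transaminase, rose from 12.6, 7.15 and 8.36 to 23.4, 24.8 and 24.4 FPKM (log2 change 1.32, SE 0.17, limma adjusted p = 0.00131), PCK2, the mitochondrial phosphoenolpyruvate carboxykinase, rose from 35.6, 32.6 and 29.999 to 56.6, 67.9 and 60.5 FPKM (log2 change 0.89) and GOT1, the cytosolic aspartate transaminase, rose by 0.82. Each of these had all PA libraries above all controls. Among amino acid transporters 8 of 16 rose and 3 fell (trend removed, 6 and 1; totals equal, 4 and 4). The neutral amino acid carrier SLC1A4 rose from 15.7, 11.9 and 13.6 to 35.7, 33.3 and 32.3 FPKM (log2 change 1.24, SE 0.11, limma adjusted p = 0.000585), the glutamine carrier SLC1A5 rose from 149, 106 and 134 to 299, 276 and 257 FPKM (log2 change 1.10), SLC43A1 rose by 0.74 and SLC7A6 fell by 0.50. The cytosolic aminoacyl-tRNA synthetases had 8 rises and 7 falls among 20 (trend removed, 6 and 5; totals equal, 8 and 8). MARS, YARS and CARS, for methionine, tyrosine and cysteine, rose by 0.79, 0.70 and 0.69, and EPRS, for glutamate and proline, fell from 45.8, 53.005 and 51.1 to 31.7, 25.4 and 33.4 FPKM (log2 change -0.72). MARS and DDIT3 overlap in the annotation, so reads at their shared end are uncertain.

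Of 27 chaperone and unfolded protein response genes 12 rose and 3 fell (trend removed, 9 and 3; totals equal, 6 and 10), and the median of 0.19 was -0.067 with totals set equal. HERPUD1, of ER-associated degradation, rose from 20.6, 11.999 and 11.3 to 38.2, 42.9 and 42.6 FPKM (log2 change 1.48, SE 0.19, limma adjusted p = 0.00141). XBP1, the transcription factor spliced by IRE1, rose from 58.96, 49.3 and 55.8 to 115, 113 and 109 FPKM (log2 change 1.03, SE 0.098, limma adjusted p = 0.000664), and the chaperone gene HYOU1 rose by 0.60. HSPA5, the main ER chaperone BiP, was at 128, 149 and 162 FPKM in control and 171, 173 and 168 in PA and did not pass the test (log2 change 0.23, limma adjusted p = 0.102), although its groups did not overlap. HSP90B1, the ER form of HSP90, fell from 105, 126 and 132 to 66.2, 58.1 and 71.5 FPKM (log2 change -0.88, SE 0.12, limma adjusted p = 0.00169). The falls of this group numbered 5 without control 1. Heat shock proteins of the cytosol and mitochondria had 1 rise and 7 falls among 15 (trend removed, 1 and 3; totals equal, 1 and 9), and 12 fell without control 1, in which most of them were low. HSP90AA1 fell from 121, 192 and 189.8 to 89.6, 53.9 and 83.2 FPKM (log2 change -1.14, SE 0.23, limma adjusted p = 0.00473), the co-chaperone DNAJA1 fell from 67.7, 109 and 99.4 to 51.9, 43.96 and 50.9 FPKM (log2 change -0.87) and the mitochondrial chaperonin HSPD1 by 0.82 on the log2 scale. The rise was HSF1, which encodes the master regulator of these genes, at 0.60. Proteasome subunits had 14 rises and 6 falls of 29, a balance that turned with totals set equal (trend removed, 7 and 0; totals equal, 2 and 13), with PSMD3 up by 0.57 and PSMD1, PSMD12 and PSMC2 at -0.76, -0.61 and -0.49. Rises of proteasome genes numbered 5, 8 and 7 without control 2, PA 1 and PA 2. Of 31 autophagy and lysosome genes 16 rose and 4 fell (trend removed, 8 and 1; totals equal, 7 and 9; 10 and 1 without PA 2). SQSTM1, the receptor that carries ubiquitinated cargo to autophagosomes, rose from 213, 187 and 188 to 342, 397 and 349 FPKM (log2 change 0.88, SE 0.11, limma adjusted p = 0.00125). NEU1 and ATG2A rose by 0.66 and 0.60, and the lysosomal membrane gene LAMP2 fell by 0.63. The falls of autophagy genes numbered 1 without control 2 and 2 without each of control 3 and PA 3.

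Most immediate early transcription factors rose. In the JUN, FOS and ATF family 10 of 14 rose and 1 fell, with a median of 0.91 (trend removed, 8 and 0; totals equal, 9 and 1), and the counts of rises stayed at 10 whichever 1 of the 6 libraries was omitted. JUN itself (ENSG00000177606, chromosome 1, 58780788 to 58784327) rose from 5.72, 6.61 and 6.41 to 45.7, 50.6 and 43.8 FPKM (log2 change 2.72, SE 0.097, limma adjusted p = 1.99e-06). FOS rose from 3.22, 2.43 and 2.47 to 7.08, 7.92 and 6.13 FPKM (log2 change 1.12) and FOSL1 from 15.5, 15.1 and 14.98 to 30.3, 32.2 and 25.3 FPKM (log2 change 0.89). Controls were tight for JUN and FOSL1, control 1 included, and all PA libraries lay above them. Of 25 other immediate early genes 18 rose and 1 fell (trend removed, 17 and 2; totals equal, 16 and 3). EGR1 rose from 5.94, 3.93 and 2.601 to 23.1, 25.8 and 25.1 FPKM (log2 change 2.36, SE 0.20, limma adjusted p = 0.000521), KLF2 rose from 1.15, 0.785 and 0.595 to 6.35, 9.23 and 8.53 FPKM (log2 change 2.29, SE 0.15, limma adjusted p = 0.000206) and IER3 rose from 94.6, 51.7 and 45.9 to 244, 348 and 283 FPKM (log2 change 2.23, SE 0.25, limma adjusted p = 0.000924). The stress kinase PLK3 rose by 1.36 and SRF, whose product switches on EGR1 and FOS through CArG boxes, rose from 31.7, 27.6 and 28.8 to 63.7, 60.2 and 51.8 FPKM (log2 change 0.97). In EGR1, KLF2 and IER3 control 1 was the highest control.

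Feedback genes of the MAP kinases rose beside them, 9 of 13 against 1 fall (trend removed, 8 and 1; totals equal, 5 and 1). DUSP5, a nuclear ERK phosphatase, rose from 5.78, 3.48 and 3.901 to 18.5, 19.5 and 15.6 FPKM (log2 change 1.82, SE 0.16, limma adjusted p = 0.000521), DUSP8, which acts on JNK and p38, rose from 5.17, 3.61 and 3.86 to 11.9, 12.7 and 11.04 FPKM (log2 change 1.32), DUSP4 rose by 0.89, and ERRFI1, which inhibits the EGF receptor, rose by 1.11. Of growth factor ligands 6 of 14 rose and 1 fell (trend removed, 4 and 4; totals equal, 3 and 4), with 2 falls without control 1. AREG, an EGF receptor ligand, rose from 1.75, 0.892 and 1.42 to 4.03, 5.27 and 5.94 FPKM (log2 change 1.37, SE 0.16, limma adjusted p = 0.00112), and FGF2 fell from 5.92, 6.63 and 6.69 to 3.25, 3.08 and 3.25 FPKM (log2 change -0.82, SE 0.091, limma adjusted p = 0.000924). Among NF-kB cytokines, chemokines and inhibitors 10 of 15 rose and 1 fell (trend removed, 8 and 1; totals equal, 9 and 2), and the fall was lost without each of control 2, control 3, PA 2 and PA 3. CXCL8, a neutrophil chemokine, was under 1 FPKM in every control and rose from 0.294, 0.174 and 0.290 to 4.499, 4.48 and 2.01 FPKM (log2 change 1.84, SE 0.22, limma adjusted p = 0.00105). It passed the 1 FPKM limit through the PA libraries alone, a choice that favours a rise. Its PA 3 library was less than 50% of PA 1 and PA 2. The inhibitors NFKBIA and NFKBIE rose from 26.4, 23.8 and 25.4 to 44.7, 56.7 and 42.4 FPKM and from 7.86, 8.63 and 9.88 to 22, 21.1 and 16.7 FPKM (log2 changes 0.89 and 1.09), and the cytokine genes IL11 and LIF rose by 1.09 and 0.58. Interferon-stimulated genes had 11 rises and 8 falls among 20 (trend removed, 2 and 4; totals equal, 1 and 8). IFIT3 fell from 6.402, 11.03 and 8.93 to 3.51, 2.86 and 3.62 FPKM (log2 change -1.15, SE 0.17, limma adjusted p = 0.00185), and IFIT1 and IFIT2 fell by 1.07 and 0.97, while IRF7 rose by 0.81. The 3 IFIT genes lie at 1 locus, where LIPA overlaps them in the annotation, and the rises of interferon genes numbered 3, 3, 7 and 4 without control 2, control 3, PA 1 and PA 2.

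Some growth arrest and apoptosis genes were among the larger rises. Of 16 p53 targets and GADD45 genes 9 rose and 2 fell, 7 of them rising at least 2-fold (trend removed, 7 and 2; totals equal, 8 and 3). CDKN1A, the cell cycle inhibitor p21 (ENSG00000124762, chromosome 6, 36676460 to 36687339), rose from 67.8, 47.8 and 48.2 to 209, 238 and 198 FPKM (log2 change 1.97, SE 0.15, limma adjusted p = 0.000275). GADD45A, a stress sensor upstream of p38 and JNK, rose from 8.99, 7.84 and 5.11 to 28.5, 47.02 and 37.1 FPKM (log2 change 2.21, SE 0.21, limma adjusted p = 0.000664), and ZMAT3, a p53 target that binds RNA, fell from 3.03, 3.78 and 3.61 to 1.49, 1.38 and 1.38 FPKM (log2 change -0.89). The list holds genes that other stress pathways induce as well, SESN2 among them. Of the BCL2 family and death receptors 6 of 18 rose and 1 fell (totals equal, 3 and 2). That share of rises is near the 27.9% of all tested genes, and the list median of 0.21 was -0.035 with totals set equal. With the trend removed 5 rose and 3 fell, and 2 fell without control 1. The pro-apoptotic BH3-only genes BBC3 and PMAIP1 rose from 2.91, 1.102 and 0.774 to 5.21, 6.51 and 5.14 FPKM and from 16.5, 9.89 and 8.24 to 26.05, 30.4 and 23.2 FPKM (log2 changes 1.43 and 1.18), the effector gene BAK1 rose by 0.72, and BMF, another BH3-only gene, fell from 2.24, 1.45 and 1.09 to 0.505, 0.421 and 0.473 FPKM (log2 change -0.80). BMF passed the 1 FPKM limit through the controls alone, which favours a fall. Control 1 was the highest control of BBC3, PMAIP1 and BMF alike.

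Of 22 SR proteins, CLK kinases and related splicing factors 17 fell and 3 rose, with a median of -0.66 and a median GC content of 43.6%. With the trend removed 10 fell and 4 rose, and the median was -0.32. SRSF7 fell from 33.6, 45.6 and 43.7 to 17.99, 15.01 and 18.3 FPKM (log2 change -1.21, SE 0.13, limma adjusted p = 0.000924), SRSF3 fell from 50.9, 60.5 and 62.9 to 31.3, 32.4 and 30.97 FPKM (log2 change -0.86, SE 0.10, limma adjusted p = 0.00111) and TRA2A fell from 9.98, 10.5 and 11.3 to 5.84, 5.39 and 5.597 FPKM (log2 change -0.81, SE 0.090, limma adjusted p = 0.000924). RBM39 fell by 0.80 on the log2 scale and was at -0.33 with the trend removed (limma adjusted p = 0.0793). All 3 PA libraries lay below all 3 controls in each of these genes.

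In the list of mitosis and cyclin genes 15 of 27 fell and 3 rose, with a median of -0.43 (trend removed, 12 and 1, median -0.27; totals equal, 19 and 0). TOP2A, the topoisomerase of dividing cells, fell from 20.8, 27.1 and 24.7 to 10.1, 7.63 and 12.3 FPKM (log2 change -1.21, SE 0.16, limma adjusted p = 0.00154). The mitotic kinesins KIF11 and KIF23 fell by 0.90 and 0.94, the checkpoint kinase gene BUB1B by 0.97, and ANLN, of the cytokinetic ring, fell from 18.3, 24.8 and 21.6 to 10.8, 6.34 and 9.71 FPKM (log2 change -1.20). Rises of this list numbered 0 without control 2 or PA 2 and 1 without each of control 3, PA 1 and PA 3. Replication genes had 10 rises and 8 falls of 27 (trend removed, 1 and 6; totals equal, 5 and 14). RRM1, the large subunit of ribonucleotide reductase, fell from 334, 364 and 393 to 237, 172 and 221 FPKM (log2 change -0.80), POLA1 and RFC3 fell by 0.90 and 0.64, and E2F1 rose from 41.3, 28.7 and 31.5 to 56.01, 61.3 and 58.4 FPKM (log2 change 0.79). Of 13 clustered histone genes 5 rose and 0 fell (totals equal, 2 and 1), led by HIST1H4C at 0.87 and HIST3H2A at 0.85. Most histone mRNAs have no poly(A) tail, so a poly(A) library reads them poorly, and 2 rose with the trend removed, 3 without each of control 2, control 3 and PA 1, and 2 without PA 2. In bulk RNA, fewer cells in a phase of the cycle and less mRNA per cell cannot be told apart.

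Of 44 cytosolic ribosomal protein genes 30 rose and 0 fell, with a median of 0.43. These rises were small and depended on the setting: 8 rose and 4 fell with totals set equal, 10 and 0 did with the trend removed, and 13, 12 and 10 rose without control 2, control 3 and PA 2. Control 1 was above both other controls in 39 of the 44, against 4334 of all 11032 tested genes. RPS3 stood at 242, 181 and 201 FPKM in control and 317, 334 and 294 in PA, and rose by 0.60 (limma adjusted p = 0.00587). Ribosome biogenesis factors had 14 falls and 5 rises of 31 (trend removed, 8 and 1; totals equal, 16 and 2). WDR43 and NOP58, of the small-subunit processome and box C/D particles, fell from 14.3, 18.9 and 21.3 to 9.13, 7.78 and 8.66 FPKM and from 15.4, 20.5 and 18.7 to 9.58, 7.26 and 9.605 FPKM (log2 changes -0.99 and -0.97), GNL3 fell by 0.70, and RRP12 rose by 0.86. NOP58 and GNL3 hold small nucleolar RNA genes. The rises of this list numbered 8 without control 1 and 2 without each of control 2, PA 1 and PA 2. Of 13 mitochondrially encoded mRNAs 8 rose and 0 fell (trend removed, 10 and 0), and with totals set equal 1 rose. MT-ND3 was at 1435, 1272 and 1508 FPKM in control and 2299.6, 2077 and 1821 in PA (log2 change 0.55, limma adjusted p = 0.0123). The rises of these mRNAs numbered 4 without control 2 and 2 without each of control 3, PA 1 and PA 2. Nuclear genes of oxidative phosphorylation had 20 rises and 4 falls of 45 (trend removed, 12 and 2; totals equal, 2 and 10), and 6, 7 and 5 rises without control 2, control 3 and PA 2. NDUFV1 of complex I rose by 0.63, and UQCRC2 and SDHD of complexes III and II fell by 0.54 and 0.38.

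**Figure D5:**
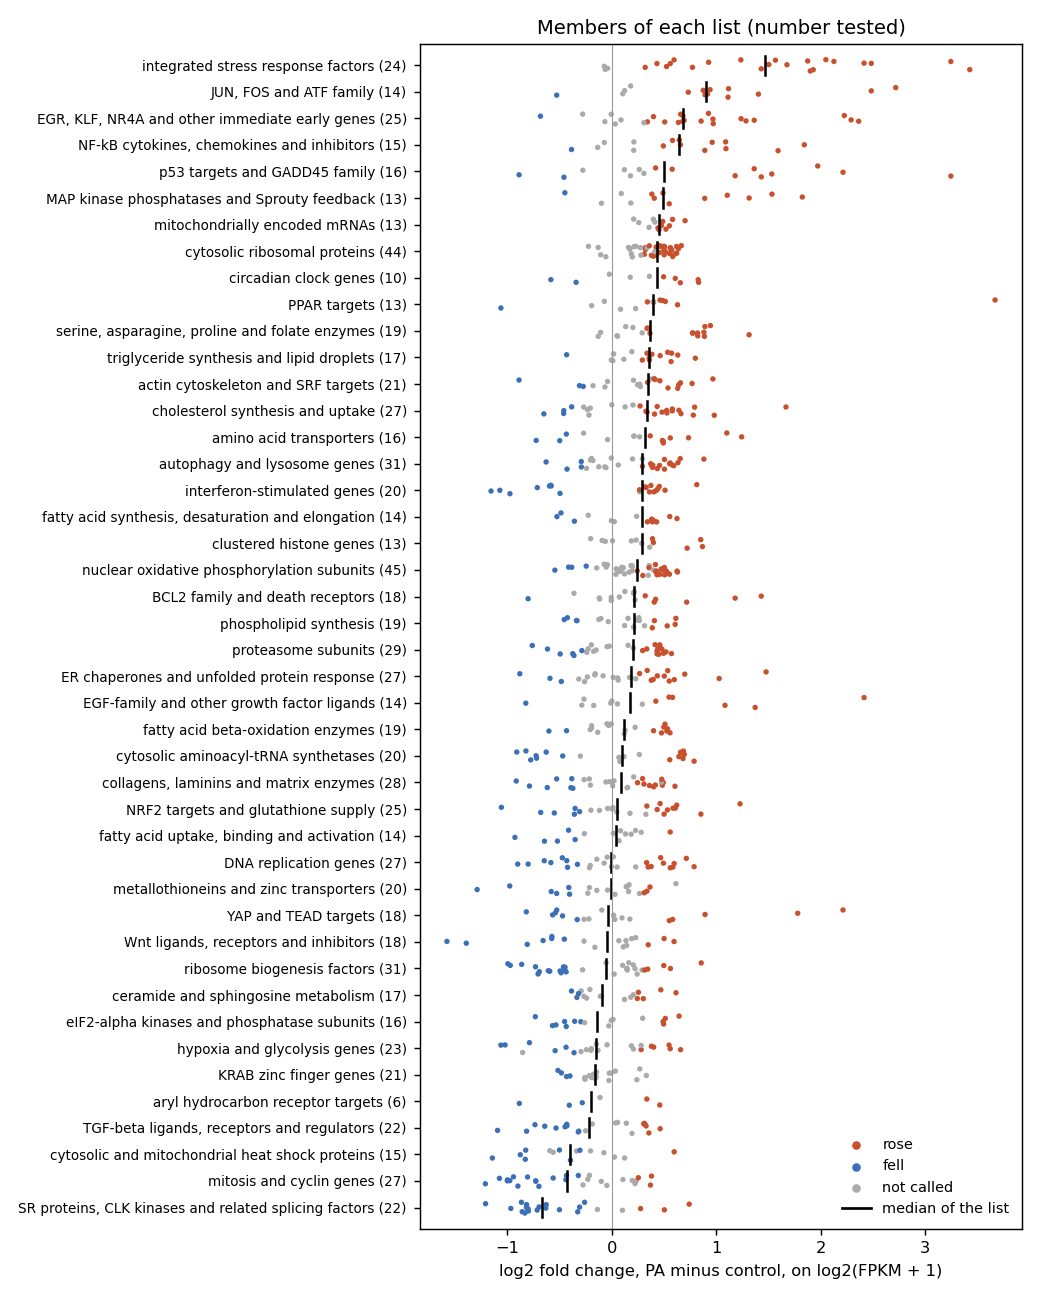
Log2 change from control to PA of each tested member (points, coloured by call) of the 44 gene lists, with a black tick at the list median and lists ordered by it. The integrated stress response list is highest (1.47) and the splicing list lowest (-0.66), and most lists hold both rises and falls.

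Genes of Wnt and TGF-beta signalling, inhibitors among them, fell more often than they rose. DKK1, a secreted Wnt inhibitor (ENSG00000107984, chromosome 10, 52314296 to 52318042), fell from 40.4, 30.01 and 30.7 to 10.4, 11.8 and 9.53 FPKM (log2 change -1.58, SE 0.13, limma adjusted p = 0.000521). The ligand WNT5A fell from 11.5, 13.5 and 12.7 to 4.07, 3.82 and 4.62 FPKM (log2 change -1.39, SE 0.10, limma adjusted p = 0.000233), the ligand WNT7B fell from 32.9, 28.5 and 31.3 to 21.4, 21.2 and 18.8 FPKM (log2 change -0.57) and the receptor LGR4 fell by 0.66. Of 18 Wnt genes 7 fell and 3 rose, the same numbers as with the trend removed (totals equal, 9 and 1). TGFBR1, the type I TGF-beta receptor, fell from 14.4, 17.7 and 17.1 to 7.13, 7.103 and 7.21 FPKM (log2 change -1.09, SE 0.099, limma adjusted p = 0.000590). The co-receptor TGFBR3 fell from 1.43, 1.31 and 1.49 to 0.509, 0.402 and 0.747 FPKM (log2 change -0.64), and SMAD6, which inhibits BMP signals, and ID2, a BMP target, fell by 0.53 and 0.73. The PA libraries lay below the controls in all of these, but TGFBR3 and ID2 passed the 1 FPKM limit through the controls alone, which favours a fall. Of 22 genes of this pathway 10 fell and 6 rose (trend removed, 6 and 0; totals equal, 12 and 0), and the rises numbered 2 without each of control 2, control 3 and PA 2. The ligand gene TGFB1 was at 29.3, 24.5 and 28.5 FPKM in control and 37.7, 33.9 and 31.6 in PA (log2 change 0.32, limma adjusted p = 0.0321), and at -0.089 with the trend removed.

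Targets of YAP and TEAD had 5 rises and 6 falls of 18 (trend removed, 3 and 6; totals equal, 4 and 7), shares near those of all tested genes (27.9% and 25.5%). YAP1 fell from 93.8, 120.1 and 114 to 60.9, 56.8 and 66.8 FPKM (log2 change -0.82, SE 0.12, limma adjusted p = 0.00185), while its matricellular targets CYR61 and CTGF rose from 115, 73.4 and 65.2 to 260.2, 322 and 275 FPKM and from 17.6, 11.9 and 9.62 to 24.7, 27.4 and 21.6 FPKM (log2 changes 1.78 and 0.89), and CRIM1 fell by 0.54. Of 28 collagens, laminins and matrix enzymes 10 rose and 7 fell, against 2 and 5 with the trend removed and 1 and 11 with totals set equal. The counts of 10 and 7 also lie near the shares of all tested genes. COL1A1 was at 11.1, 10.3 and 10.2 FPKM in control and 12.4, 12.3 and 12.3 in PA and did not pass the test (limma adjusted p = 0.0586). The collagen-modifying enzymes PLOD2 and P4HA1 fell from 13.2, 16.9 and 18.8 to 8.12, 8.01 and 8.21 FPKM and from 6.88, 8.98 and 10.2 to 4.33, 4.68 and 4.68 FPKM (log2 changes -0.91 and -0.79), COL12A1 fell by 0.62, and PLOD1 rose by 0.61. Without control 2, control 3 and PA 2 the matrix rises numbered 4, 5 and 5, and the falls 4 without control 2 and 4 without PA 2. Of 21 actin cytoskeleton and SRF target genes 10 rose and 3 fell (trend removed, 5 and 1; totals equal, 5 and 5; 6 rises without each of control 2, control 3 and PA 2, and 1 fall without control 3 or PA 3). FLNA, filamin A, rose from 305, 242 and 274 to 529.9, 476 and 400.1 FPKM (log2 change 0.77) and TLN1, talin, by 0.64, and CALD1, caldesmon, fell by 0.89.

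Among the other large falls were AATK, a membrane kinase gene that overlaps BAIAP2, from 12.4, 12.3 and 14.6 to 3.31, 3.46 and 3.33 FPKM (log2 change -1.68, SE 0.096, limma adjusted p = 7.09e-05), and CHML, a Rab escort protein gene that overlaps OPN3, from 8.71, 11.8 and 10.01 to 2.89, 1.94 and 2.79 FPKM (log2 change -1.66, SE 0.14, limma adjusted p = 0.000521). OLR1, the scavenger receptor for oxidised LDL, fell from 36.6, 38.3 and 35.1 to 15.2, 13.6 and 14.7 FPKM (log2 change -1.28, SE 0.089, limma adjusted p = 0.000206). SERPINB5, a serpin of epithelia, fell from 26.01, 28.3 and 28.5 to 11.7, 9.91 and 12.4 FPKM and TNS4, a focal adhesion tensin, fell from 27.8, 28.9 and 34.5 to 14.3, 12.1 and 10.7 FPKM (log2 changes -1.22 and -1.24). Both groups were tight in OLR1 and SERPINB5 and did not overlap, the latter as the rule that named the largest falls required. TENT5A, LIMA1, ANP32E and KLHL13 fell by 1.41, 1.21, 1.20 and 1.16 on the log2 scale. The zinc importer SLC39A10 fell from 8.85, 11.5 and 10.5 to 3.82, 2.88 and 4.23 FPKM (log2 change -1.29, SE 0.14, limma adjusted p = 0.000910), as did SLC39A6 from 25.9, 35.2 and 35.3 to 15.5, 13.6 and 18.4 FPKM (log2 change -0.97). In the whole list of metallothioneins and zinc transporters 3 of 20 rose and 6 fell (trend removed, 1 and 2; totals equal, 0 and 10), with at most 1 rise when control 2, control 3, PA 2 or PA 3 was left out. Beside MIR3189, the non-coding genes named for their change were AC245041.1, which fell from 28.5, 41.1 and 38.4 to 10.5, 5.26 and 9.43 FPKM (log2 change -2.01, SE 0.22, limma adjusted p = 0.000924), MIR3687-1, listed at 1.68, 3.71 and 1.97 FPKM in control and at 0 in every PA library and so tested through the controls alone, and MIR4449, which fell by 1.70. RNU5A-1 and a gene named RF00019 rose by 1.41 and 1.25. MIR4449, RNU5A-1 and RF00019 overlap the expressed genes DANCR, PARP16 and RRP12, so their reads cannot be told apart from those of longer transcripts. AC245041.1 and OLR1 overlap the expressed genes AC245041.2 and TMEM52B in the annotation.

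HIF1A, the oxygen-regulated subunit of the hypoxia factor, fell from 25.01, 30.8 and 27.4 to 14.1, 11.2 and 14.4 FPKM (log2 change -1.02, SE 0.12, limma adjusted p = 0.00108). Of 23 hypoxia and glycolysis genes 6 rose and 6 fell (trend removed, 1 and 5; totals equal, 0 and 12), near the shares of all tested genes (27.9% and 25.5%), and the rises numbered 3, 3 and 2 without control 2, PA 1 and PA 2. BNIP3L, a mitophagy receptor, fell by 0.54. Among NRF2 targets 10 of 25 rose and 6 fell (trend removed, 6 and 2; totals equal, 5 and 9; 3 falls without each of control 2, control 3 and PA 2). OSGIN1, an oxidative stress response gene, rose from 12.9, 10.001 and 10.1 to 25.4, 30.2 and 25.6 FPKM (log2 change 1.23, SE 0.12, limma adjusted p = 0.000717), HMOX1, heme oxygenase 1, rose from 13.5, 14.5 and 13.3 to 22.5, 30.02 and 25.03 FPKM (log2 change 0.85, SE 0.11, limma adjusted p = 0.00155), and of the conjugate exporters ABCC3 rose by 0.61 and ABCC2 fell from 10.95, 12.8 and 12.1 to 5.66, 4.102 and 6.09 FPKM (log2 change -1.05). Of 6 aryl hydrocarbon receptor genes 2 rose and 3 fell (trend removed, 2 and 2; totals equal, 0 and 3), with TIPARP down by 0.88 and AHRR by 0.41, and ALDH3A1 up by 0.46. Rises there numbered 0 without control 2 or PA 2 and 1 without control 3 or PA 1. Of 10 clock genes 5 rose and 2 fell (trend removed, 4 and 0; totals equal, 4 and 2), and 1 fell without each of control 2, control 3 and PA 2. PER1 rose from 4.11, 3.36 and 3.57 to 7.904, 7.52 and 6.499 FPKM (log2 change 0.83), CRY2 and BHLHE40 rose by 0.83 and 0.66, and CRY1 fell by 0.58. Of 21 zinc finger genes in a list made chiefly of KRAB repressors 0 rose and 4 fell, and the direction turned with the trend removed (trend removed, 3 and 1; totals equal, 0 and 8; median -0.16, and 0.13 with the trend removed), with 2 falls without each of control 2, control 3, PA 1 and PA 2. ZNF544 fell by 0.51, and ZNF326 and ZNF121, called at -0.48 and -0.40, were at 0.0043 and 0.047 with the trend removed.

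Levels of the same genes in the cells that had palmitate with oleate or with BMS-309403 are given side by side, for genes selected after their values were seen and without a test. PA+OA 1 and PA+BMS 3 each stand apart from the rest of their group. ANGPTL4 was at 203, 121 and 115 FPKM in PA+OA 1, 2 and 3 and at 54.95, 50.99 and 36.6 in PA+BMS 1, 2 and 3. Stress genes were high in PA+OA, where DDIT3 was at 113, 122 and 103 FPKM and HERPUD1 at 192, 186 and 202, above every PA library, against 35.9, 33.7 and 20.01 and 37.8, 36.2 and 26.5 in PA+BMS. JUN was at 79.9, 97.2 and 89.98 in PA+OA and 54.1, 55.4 and 48.1 in PA+BMS, and PDK4 at 11.8, 21.9 and 27.2 and 43.3, 43.1 and 69.7.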

How the data were processed

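Messenger RNA of HepaRG cells was selected by poly(A) and sequenced as 150 bp pairs, per the labels' protocols. The deposited values are FPKM per gene and library, made by the authors. Tools listed in the submitters' processing notes are HISAT2 2.0.5, featureCounts 1.5.0-p3 and CASAVA. Build, annotation and strandedness were not given in the sources used here, but identifiers, symbols and positions of all 58735 genes equalled GENCODE 29 on GRCh38. Whole reads were recovered from the deposited FPKM (100% of values whole within 0.001).

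From these values, log2(FPKM + 1) of 11032 genes was fitted with limma 3.58.1 in R 4.3.3, over the 6 libraries compared, with eBayes (trended prior, 4 residual degrees of freedom) and two-sided tests adjusted by Benjamini-Hochberg over all genes tested. "Rose" and "fell" mean an adjusted p under 0.05. The procedure was run on simulated reads with the same dispersion for every gene and library. They had no trend with GC content or length and no outlying control, so the run does not cover these features of the data. Groups come from the labels' treatment. The genes compared and the 44 gene lists were chosen with earlier results of these data known, and some genes stand in more than 1 list. Named genes are the 15 protein-coding and 3 non-coding genes with the largest rise and fall whose groups do not overlap, 26 fixed genes, and from each list up to 4 called members of smallest p. Some genes under this rule are not reported here. Of 199 such genes tested, 59 overlap another expressed gene. All replicate pairs differed beyond sampling noise, by a chi-square per gene of 8.35 to 24.9, and each library was counted once. Alternatives were a pseudocount of 0.1, no filter or one at 5 FPKM, median-of-ratios scaling, totals set equal, quantile normalization, all 12 or 10 libraries, a replicate block, voom on recovered reads, removal of the GC and length trend by splines with 5 degrees of freedom, and leaving out each library. Promoters came from RefSeq (GRCh38.p14), and figures were drawn with matplotlib 3.10.9.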

Additional observations from a re-analysis of the deposited data

How the results depend on the processing

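The number of genes called, 5891, was 3700 with no filter (1840 rose, 1860 fell), 3355 in a fit over all 12 libraries (1560 rose, 1795 fell) and 2661 after removal of the GC and length trend (1247 rose, 1414 fell), of which 1850 were also called without that removal. With library totals set equal 977 rose and 4265 fell, with voom on recovered reads 1750 rose, and with a filter at 5 FPKM, where fewer genes were tested, 1495 fell. The 159 genes changed at least 2-fold became 446 with a pseudocount of 0.1, 440 with totals set equal and 917 with voom. Leaving out 1 library at a time gave 3787 to 6628 calls (1913 to 3518 rises, 1874 to 3110 falls) and 137 to 295 genes changed at least 2-fold, with the lowest numbers of calls without control 2 (3787) and PA 2 (3879) and the most 2-fold changes without control 1 (295). With the trend removed SGMS2 (0.064), SPTLC1 (0.058), ZNF326 (0.0043), ZNF121 (0.047) and TGFB1 (-0.089) changed sign on the log2 scale. The cause of these shifts was not tested, other than the smaller set tested at 5 FPKM. The library sizes behind the deposited FPKM were 1.03, 1.10 and 1.04 times the recovered reads in controls 1, 2 and 3. In PA 1, 2 and 3 they were 0.888, 0.925 and 0.976 times the recovered reads, which voom took as library sizes. How much of the shifts with voom and with equal totals goes with this difference was not tested. Of 197 named genes called, 183 were called in each of the 6 fits that left out a library. Same-numbered control and PA libraries deviated in opposite directions from their group means (correlation -0.225, -0.196 and -0.103). These values show no shared deviation by replicate number. They cannot exclude pairing, because deviations were taken from means of only 3 libraries. Higher correlations stood between libraries of other numbers (control 1 with PA 2, 0.374; control 2 with PA 3, 0.290; control 3 with PA 1, 0.355), and the labels tie none of these together. A fit with the replicate block called 5067 genes (2670 rose, 2397 fell). Short genes at low FPKM rest on few reads, and small changes of them may not be detectable at this depth.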
